A study of Homo sapiens with 6 samples.

Results

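The regions described here lie in and around the genes for the antibody chains: the heavy chain locus IGH on chromosome 14 (105500000 to 106900000), the kappa light chain locus IGK on chromosome 2 (88800000 to 90300000), the lambda light chain locus IGL on chromosome 22 (22000000 to 22950000) and the joining chain gene JCHAIN on chromosome 4 with 50 kb on each side. Peaks of the 6 libraries that shared at least 1 bp were merged, and every merged region that overlapped one of these 4 windows was taken, whatever its values. This gave 139 regions of 75701 in all, with 45 at IGH, 22 at IGK, 57 at IGL and 15 at JCHAIN. The libraries were made by ATAC-seq, in which a transposase inserts sequencing adapters into accessible DNA, from the human multiple myeloma line ARP1. One group of 3 libraries carried a knock out of KDM6A and the other 3 were wild type, numbered 1 to 3 in each. The labels give no treatment, no further allele and no guide, and do not say whether the knockout line was 1 clone or whether the numbered replicates were separate cultures, so p-values measure only the spread between these libraries. The study asked how KDM6A, a histone demethylase that removes a Polycomb mark from chromatin, affects the accessibility of DNA.

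Antibody genes are assembled in developing B cells by joining a variable (V), a diversity (D, heavy chain only) and a joining (J) segment upstream of the constant genes. In plasma cells and in myeloma, which arises from them, the assembled genes are transcribed at very high rates under enhancers that lie in the intron between the J segments and the constant genes and downstream of the constant genes. JCHAIN encodes the joining chain that links the units of secreted IgM and IgA, and it is switched on as B cells become plasma cells. Some V segments lie on DNA that is deleted when a locus rearranges, and a peak list does not show which segments a line has kept.

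Sequences came from RefSeq, build GRCh38.p14, where the tables held an entry. The 4 microRNA hairpins that RefSeq places between IGHM and the J segments are shown because MIR4537 lies inside the heavy chain intron region described below and the other 3 lie 211, 278 and 881 bp below its lower end. Capitals mark the pentamers GAGCU and GGGCU, which make up the switch repeats used in antibody class switching, in the sequence of the hairpin RNA. Of 1519 distinct hairpins in the table, 10.9% hold GAGCU and 15.7% hold GGGCU.
MIR4537 (chr14:105859484-105859553, minus strand): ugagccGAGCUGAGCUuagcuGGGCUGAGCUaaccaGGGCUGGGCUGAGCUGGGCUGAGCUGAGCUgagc
MIR4538 (chr14:105858165-105858242, minus strand): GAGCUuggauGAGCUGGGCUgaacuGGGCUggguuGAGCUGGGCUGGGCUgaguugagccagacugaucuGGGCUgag
MIR4507 (chr14:105858124-105858175, minus strand): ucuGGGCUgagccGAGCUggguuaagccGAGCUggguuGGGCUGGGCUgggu
MIR4539 (chr14:105857513-105857572, minus strand): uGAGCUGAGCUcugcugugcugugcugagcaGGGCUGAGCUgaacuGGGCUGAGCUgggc
MIR4537, inside the region called in all 6 lists, holds GAGCU 6 times and GGGCU 4 times. MIR5571 lies inside the broad lambda region between the V and J segments, and the seeds (bases 2 to 8) of its mature forms are in capitals.
hsa-miR-5571-5p (chr22:22886291-22886311, plus strand): cAAUUCUCaaaggagccuccc
hsa-miR-5571-3p (chr22:22886331-22886349, plus strand): gUCCUAGGaggcuccucug

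The 250 bases before the JCHAIN start are shown because the peaks at and just before the start were called in wild-type lists only. Capitals mark the 129 bases covered by the only peak of the 6 lists that reached them, in wild type library 2.
JCHAIN (chr4:70666509-70666758, minus strand): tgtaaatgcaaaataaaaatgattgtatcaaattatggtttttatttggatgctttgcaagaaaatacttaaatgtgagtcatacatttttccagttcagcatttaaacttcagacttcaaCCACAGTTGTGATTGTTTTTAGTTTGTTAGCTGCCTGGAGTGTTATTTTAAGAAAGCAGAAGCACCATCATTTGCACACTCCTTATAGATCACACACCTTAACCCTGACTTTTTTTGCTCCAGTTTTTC
A start of the uncharacterised gene LOC105372948 lies inside the same broad lambda region as MIR5571, and capitals in its upstream bases mark an E box on the minus strand of the printed sequence, at base 77.
LOC105372948 (chr22:22884600-22884849, minus strand): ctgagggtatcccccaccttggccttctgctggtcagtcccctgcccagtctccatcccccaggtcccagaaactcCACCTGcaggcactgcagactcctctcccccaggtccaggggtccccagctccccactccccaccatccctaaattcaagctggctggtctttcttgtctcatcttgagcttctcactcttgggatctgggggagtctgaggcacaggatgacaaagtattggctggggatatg
Promoter windows of 300 bases (250 before and 50 after the start) were searched on both strands for the octamer ATGCAAAT, the E box CAGGTG, the TATA box TATAAA and the interferon regulatory factor motif GAAANNGAAA. Among 34796 distinct promoters, 1.76% hold the octamer, 20.6% the E box, 11.6% the TATA box and 3.57% the last motif. The JCHAIN window holds none of these letters, and the start of LOC105372948 printed above holds only the E box.

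The lists differed in length and depth. Peaks outside the mitochondrial genome numbered 33055 to 37314 in the knockout lists and 54443 to 56048 in the wild-type lists, so the knockout mean was 64.5% of the wild-type mean. The background pileup, the reads expected at a base without enrichment, was 2.31 ± 0.255 in knockout and 3.52 ± 0.358 in wild-type libraries (SD, n = 3). The lowest fold listed was 3.23 ± 0.121 in the knockout lists and 2.81 ± 0.0995 in the wild-type lists (SD, n = 3), so a weak site needed a higher fold to enter a knockout list. Fold here is the authors' own value, the pileup at a peak plus 1 read over that background plus 1 read, and a region's fold in a library is that of its highest peak. Folds are given for libraries 1, 2 and 3 in that order, with the knockout before the wild type. A site with no peak is a site below the caller's threshold, not a site without reads. The start of KDM6A itself was called in all 6 lists, with folds of 11.4, 15.1 and 12.6 in knockout and 8.76, 13.6 and 10.7 in wild-type libraries, and a peak there does not test the deletion. Starts of 5 of 8 plasma cell genes were called in all 6 lists, SDC1, IRF4, PRDM1, XBP1 and CD38. The other 3, TNFRSF17, SLAMF7 and POU2AF1, were not in the promoter table, where 58.3% of coding genes had such a start. Folds were lower in every knockout library at 2 of the 5, beside 37.3% of coding starts called in all 6 lists. SDC1 had 15.3, 16.7 and 17.7 in knockout and 26.9, 30.9 and 27.2 in wild-type libraries. CD38 had 12.9, 16.4 and 14.9 against 19.0, 23.8 and 20.7. The groups overlap at IRF4, PRDM1 and XBP1. Of the mature B cell genes in the table, CD22 had no call and PAX5 is given below. No start of the 7 T cell, myeloid and erythroid genes in the table (CD3D, CD2, LCK, CD14, CSF1R, GATA1, KLF1) was called in any list.

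The heavy chain, kappa and JCHAIN windows held fewer peaks in every knockout library than in any wild-type library, and the lambda window did not. At IGH the knockout lists held 21, 25 and 25 peaks and the wild-type lists 35, 40 and 34. At IGK they held 7, 7 and 9 against 16, 16 and 12. At JCHAIN they held 5, 4 and 4 against 8, 11 and 14. The groups did not overlap in these 3 windows, and the knockout means were 65.1%, 52.3% and 39.4% of the wild-type means, beside 64.5% for all peaks. Within 5 Mb on either side of the same windows they were 80.1%, 68.8% and 46.0%. At IGL the knockout lists held 27, 29 and 34 peaks and the wild-type lists 23, 31 and 16, which overlap, and the knockout mean was 129% of the wild-type mean. That difference of 6.67 peaks was 3.0 without wild type library 3, 10.5 without wild type library 2 and 3.67 at a −log10 q-value of at least 5. The exact permutation p was 0.50, 0.10 and 0.40 in that order.

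The difference of means was tested by a two-sided exact permutation test, which with 3 libraries against 3 cannot give a p below 0.10. It gave that p at IGH, IGK and JCHAIN and 0.30 at IGL (adjusted over the 4 windows 0.133, 0.133, 0.133 and 0.30). Together the windows held 65.7 ± 6.03 peaks in knockout and 85.3 ± 11.4 in wild-type libraries (SD, n = 3), 77.0%, exact permutation p = 0.10. Per 1000 peaks of the list, IGH held 0.666 ± 0.0292 in knockout and 0.661 ± 0.0658 in wild-type libraries (SD, n = 3, exact permutation p = 1.00), a difference smaller than the spread between libraries. IGK held 0.216 ± 0.0313 against 0.267 ± 0.0460 and JCHAIN 0.123 ± 0.0244 against 0.20 ± 0.0515 (SD, n = 3, exact permutation p = 0.20 for each). IGL held 0.846 ± 0.0866 against 0.426 ± 0.142 (SD, n = 3, exact permutation p = 0.10; over the 4 windows the adjusted values were 1.00 for IGH and 0.267 for the other 3). When every list was cut to its 33055 strongest peaks, the difference in peaks turned from -19.7 to 13.7 over the 4 windows, from -12.7 to 0.667 at IGH and from -7.00 to 1.00 at IGK. At JCHAIN it moved from -6.67 to -1.67, with an exact permutation p of 0.30 in place of 0.10, and at IGL from 6.67 to 13.7, with an exact permutation p of 0.10 in place of 0.30.

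**Figure D1:**
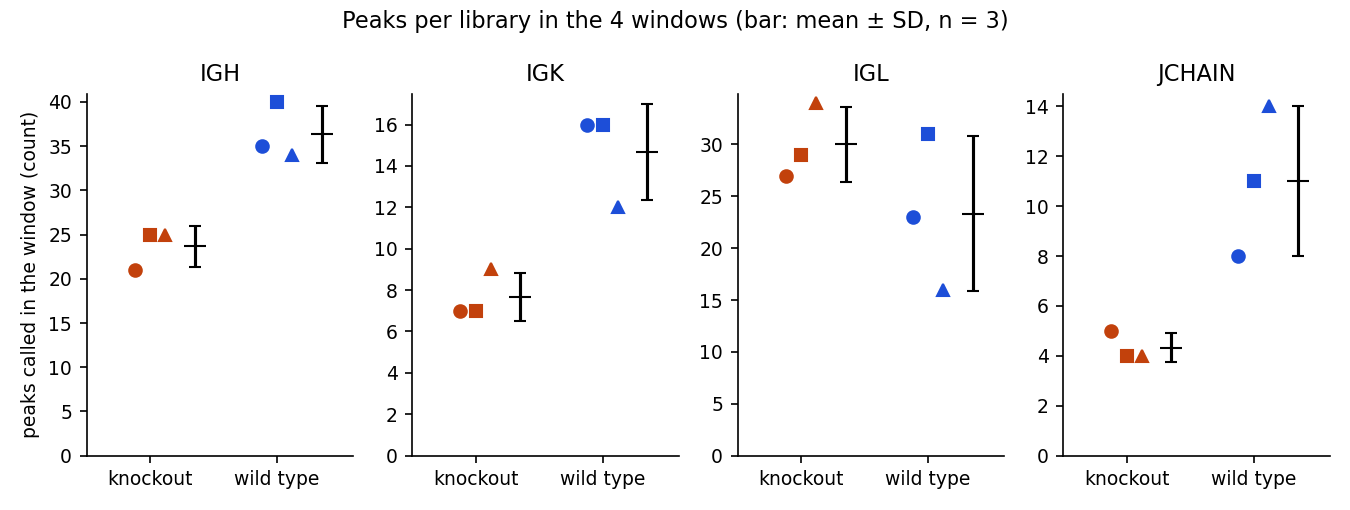
Peaks called in each window (count, vertical axis) in each library, with knockout in orange and wild type in blue and circle, square and triangle for libraries 1, 2 and 3; the black bar is the mean ± SD of 3 libraries. At IGH, IGK and JCHAIN every knockout point lies below every wild-type point, and at IGL the knockout points at 27, 29 and 34 overlap the wild-type points at 23, 31 and 16.

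Of the 139 regions, 32 were called in all 6 lists, beside 23589 of all 75701 merged regions. A further 52 were called only in wild-type lists and 27 only in knockout lists. Those 52 and 27 include the 51 regions called in 1 list alone. Regions called in wild-type lists and no knockout list made up 37.4% of the members, beside 40.8% of all merged regions. By window they were 17 of 45 at IGH (37.8%), 13 of 22 at IGK (59.1%), 11 of 57 at IGL (19.3%) and 11 of 15 at JCHAIN (73.3%). Regions called in knockout lists and no wild-type list made up 19.4% of the members, beside 7.22% of all merged regions, and 24 of the 27 were at IGL. Under the strict rule of 3 of 3 wild-type lists and 0 of 3 knockout lists, 7 of the 50 members called in all 3 wild-type lists were called in the wild type alone (14%), beside 17.3% of all such regions and 22.4% of those more than 1 kb from a gene start. Those 7 were 3 at IGH, 1 at IGK, 3 at JCHAIN and none at IGL. Under the converse rule, 1 of the 37 members called in all 3 knockout lists was called in the knockout alone, at IGL, beside 0.39% of all such regions. The count of 7 became 12, 11 or 16 without wild type library 1, 2 or 3, and the count of 1 became 3 without knockout library 1. Leaving out a library loosens the rule, and without those wild type libraries the 17.3% of all such regions became 21.3%, 21.9% and 20.3%.

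The 7 regions seen in the wild type alone were weak. Their mean wild-type fold ranged from 3.55 to 6.40 with a median of 3.98, beside a median of 5.27 for all such regions and of 10.3 for the 32 members called in all 6 lists. The lowest folds the knockout lists hold are 3.31, 3.28 and 3.09, so 5 of these 7 lay within 1 unit of fold of that floor. The region upstream of JCHAIN and the region over IGHVII-1-1 were the only 2 of the 7 that were still called in 3 of 3 wild-type and 0 of 3 knockout lists under each of a −log10 q-value of at least 5, lists of equal length and an equal fold threshold of 3.31.

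Around the JCHAIN start, every peak called came from a wild-type library. The region just upstream of the gene, at chromosome 4, 70666917 to 70669116 (2200 bp), begins 409 bp from the start and had wild-type folds of 5.98, 6.32 and 6.92 (6.40 ± 0.474, SD, n = 3) with 27, 25 and 32 reads at the summit. No knockout list held a peak there, and the lowest summits those lists hold are 10, 9 and 10 reads. Over the start itself the only peak was in wild type library 2, at a fold of 4.37, the one marked in the printed sequence.

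Inside the gene, which spans 70655541 to 70666508, a region at 70659616 to 70662096 was called in all 6 lists. Its folds were 5.42, 3.93 and 3.65 in knockout and 8.11, 6.32 and 6.50 in wild-type libraries, so every knockout value lay below every wild-type value. Folds were lower in the knockout in general, with a median over the 23589 regions called in all 6 lists of 9.19 ± 0.584 beside 12 ± 1.03 for the wild type (SD, n = 3), so each region was also ranked among those regions within its own library. On that scale this JCHAIN region stood at percentile 5.05 ± 7.25 in knockout and 16.6 ± 9.61 in wild-type libraries (SD, n = 3), with overlapping groups, and the exact permutation test adjusted over all 23589 regions gave 0.406. A second region of the gene body, 70662768 to 70663662, was called in the wild type alone at folds of 2.99, 3.89 and 3.77. The third region seen in the wild type alone lies past the gene's end, toward ENAM, an enamel protein gene, at 70647880 to 70649465, with folds of 4.06, 3.89 and 3.98. Both are at the level where the knockout lists end.

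Of the 10 regions that flank JCHAIN in its window, 3 were called in all 6 lists and the other 7 in wild-type lists only, most of them weak. The strongest of those 7, next to ENAM at 70644826 to 70645268, was in wild type library 3 alone at a fold of 5.45. Of the 3 shared ones, the region over the uncharacterised gene LOC101927297, 10212 bp upstream of the start, had folds of 5.72, 6.23 and 4.77 against 5.98, 7.29 and 9.64, and its groups overlap. The region over UTP3, a ribosomal RNA processing gene, had folds of 14.7, 15.4 and 14.3 in knockout and 15.6, 21.4 and 18.0 in wild-type libraries, and that over RUFY3 had 13.5, 12.8 and 13.7 against 14.5, 21.9 and 17.6. Their percentiles were 78.9 ± 1.92 against 76.8 ± 3.78 and 73.5 ± 6.11 against 75.3 ± 6.39 (SD, n = 3), with overlapping groups. Peaks were scarcer in the knockout on both sides of the window as well. Within 5 Mb on either side, outside the window, the knockout lists held 54, 68 and 58 peaks and the wild-type lists 127, 123 and 141, a knockout mean of 46.0% of the wild-type mean, and of 101 regions there that all 3 wild-type lists called, 29 were seen in the wild type alone (28.7%). The 3 of 7 at JCHAIN (42.9%) stand beside that share as well as beside the 17.3% of all regions. Over all coding genes with a start called in all 3 wild-type lists, 1.21% had that start in the wild type alone. JCHAIN is among them when a region within 1 kb counts as a call at a start, since the upstream region begins 409 bp away.

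**Figure D2:**
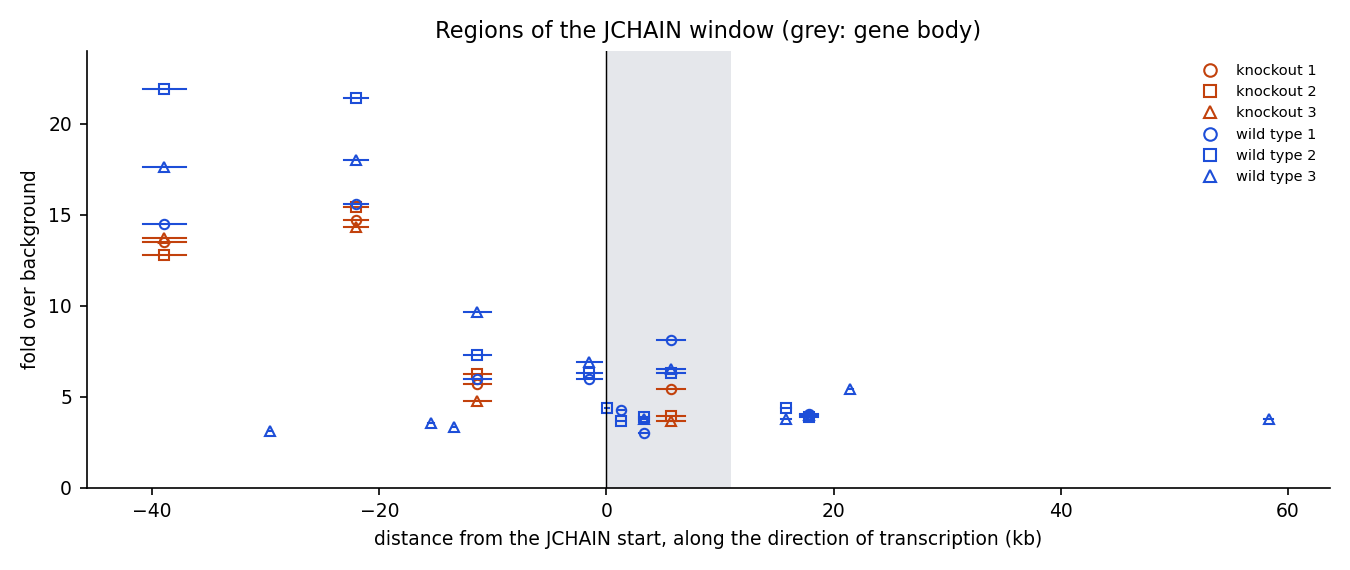
Fold over background (vertical axis) of each JCHAIN region in each library that called it, against the distance from the gene's start along its direction of transcription (kb, horizontal axis), with negative values upstream; horizontal strokes span the region, knockout is orange and wild type blue. From just upstream of the start to the end of the grey gene body only 1 region carries orange points, the one with knockout folds of 5.42, 3.93 and 3.65.

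The enhancer intervals of the heavy chain locus were accessible in both genotypes. Regions were called in all 6 lists downstream of both alpha constant genes and in the intron between the J segments and IGHM, the constant gene of IgM, and of the 8 regions downstream of the alpha genes that every wild-type list called, 1 was seen in the wild type alone, beside 17.3% of all such regions. Taking 40 kb below IGHA2, the constant gene of IgA2, the strongest region lay at chromosome 14, 105558582 to 105561120, with folds of 12.3, 13.4 and 14.3 in knockout and 14.3, 17.0 and 10.9 in wild-type libraries. The groups overlap, and its percentile was 73.5 ± 5.62 against 59.7 ± 12.7 (SD, n = 3), higher in every knockout library. The next, 105574532 to 105576553, had 6.02, 5.90 and 7.30 against 8.54, 12.6 and 9.64, with percentiles of 24.1 ± 12.5 against 38.2 ± 8.49 (SD, n = 3) that overlap. Nearest the gene, 105581645 to 105582976 was called in 2 knockout and 3 wild-type lists, and 105585919 to 105586449, which ends 487 bp below the gene, in the wild type alone at folds of 2.99, 3.89 and 3.98. The farthest, 105557136 to 105557674, was called in 1 knockout list at 5.57 and in all wild-type lists at 6.41, 6.81 and 4.61.

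Between the pseudogene IGHGP and IGHA1, the constant gene of IgA1, 3 of 5 regions were called in all 6 lists. The strongest, 105679148 to 105681738, had folds of 15.6, 14.1 and 12.3 in knockout and 13.5, 19.0 and 14.5 in wild-type libraries. The other two, 105695244 to 105697044 and 105699242 to 105701803, had 6.32, 6.56 and 6.73 against 6.83, 9.72 and 9.22 and 5.12, 7.54 and 6.17 against 7.69, 5.59 and 5.24. None of the 3 had percentiles that separated the groups. Each alpha gene thus had a strong downstream region in both genotypes, at 14.1 ± 3.07 and 15.6 ± 2.93 in the wild type and 13.4 ± 0.988 and 14 ± 1.65 in the knockout (SD, n = 3). Both are of like length (2539 and 2591 bp) and lie at like distances from their genes (25816 and 25429 bp). How reads that fit both places were assigned is not given in the sources used here, so the peaks may not be independent.

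The intron region at 105858454 to 105863062, which holds MIR4537 and ends 133 bp below IGHJ6, is 4609 bp long. Its folds were 6.02, 5.90 and 6.17 in knockout and 9.40, 9.96 and 9.64 in wild-type libraries, with little spread in either group and no overlap. Its percentile was 19.8 ± 5.65 in knockout and 35.1 ± 3.10 in wild-type libraries (SD, n = 3), lower in every knockout library, with an exact permutation p of 0.10 and 0.284 after adjustment over 23589 regions. It was the only 1 of the 32 members called in all 6 lists that ranked lower in every knockout library (3.12%), beside 17.3% of all regions called in all 6 lists. With 50% of a region required to be covered that count was 0, and without knockout library 1 or 3 or wild type library 1 or 2 it was 3, 4, 2 and 2.

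Upstream of it, in the D segments and over FAM30A, a long noncoding RNA gene, lay 2 more broad regions called in all 6 lists. That at 105917162 to 105921208 covers IGHD1-1 and a FAM30A start and had folds of 6.02, 4.59 and 6.45 in knockout and 7.26, 11.2 and 7.96 in wild-type libraries. That at 105926095 to 105930699 had 6.32, 6.23 and 8.42 against 9.18, 10.9 and 10.5. Folds separated the groups in both, and percentiles did not (17.5 ± 12.7 against 28.0 ± 10.1 and 29.8 ± 16.6 against 38.7 ± 3.12, SD, n = 3). Among the constant genes, the region at 105747363 to 105748586 above IGHG1, the constant gene of IgG1, had folds of 4.82, 4.26 and 4.77 in the knockout and 3.63, 3.16 and 4.19 in the wild type, with every knockout value above every wild-type value. It was the only 1 of the 32 members called in all 6 lists with that order of folds (3.12%), beside 2.81% of all such regions, while 8 of the 32 had every knockout fold below every wild-type fold (25.0%), beside 43.9%. It was among the weakest of the regions called in all 6 lists, at percentiles of 5.79 ± 3.4 against 0.914 ± 1.09 (SD, n = 3), which overlap. No region was called in any list from 105748587 to 105858453, which is 110 kb and holds IGHM, IGHD and IGHG3, the constant genes of IgM, IgD and IgG3. Whether this line kept that stretch on its DNA was not tested.

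In the heavy chain variable part, the regions near V segments that were called in all 6 lists were all at pseudogenes. Within 1 kb of a V segment that RefSeq does not call a pseudogene, a region was found at 10 of 48, none called in all 6 lists. Among V pseudogenes it was 13 of 79, 5 of them called in all 6 lists. All 5 have names that begin with IGHVIII, a prefix found here only on pseudogenes. Of 17 segments so named 9 had a region, beside 2 of 22 named IGHVII and 12 of 88 of the rest. This grouping was chosen after its values were seen and carries no test.

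At IGHVIII-26-1 the region at 106308841 to 106309767 had folds of 16.3, 15.7 and 16.8 in knockout and 16.2, 17.5 and 15.5 in wild-type libraries, or 16.3 ± 0.551 against 16.4 ± 1.01 (SD, n = 3). At IGHVIII-2-1 the folds were 9.63, 16.1 and 10.7 against 9.40, 13.4 and 7.96. At IGHVIII-16-1 they were 6.92, 8.85 and 5.05 against 5.34, 8.75 and 7.12, at IGHVIII-38-1 11.7, 13.1 and 6.45 against 11.3, 15.8 and 11.1, and at IGHVIII-47-1 8.73, 7.87 and 10.1 against 10, 12.6 and 8.59. The folds of all 5 overlapped between genotypes. The percentiles at IGHVIII-26-1, 84.2, 77.7 and 86.3 against 74.7, 68.7 and 69.9, and at IGHVIII-2-1, 55.2, 78.7 and 64.1 against 37.6, 51.3 and 23.8, were higher in every knockout library. The regions lay over the segment or, at 7 of the 9, beside it on the side of the constant genes, 4 to 432 bp away. The highest fold of the heavy chain window was at 106663783 to 106664509, between IGHV3-64 and IGHV3-65 and over LOC102724977, with 20.5, 26.6 and 16.6 in knockout and 18.2, 32.3 and 26.0 in wild-type libraries.

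Of the variable part regions seen in the wild type alone, the one over the pseudogene IGHVII-1-1, at 105944684 to 105945718, had folds of 5.34, 6.81 and 5.87 (6.0 ± 0.743, SD, n = 3). It lies 4482 bp above IGHV6-1, the V segment nearest to the D segments. The other, at 106843655 to 106844672, had 3.63, 3.89 and 4.19. Many V segments resemble one another in sequence, and how reads that fit several of them were placed is not given in the sources used here, so peaks at single V segments are uncertain.

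**Figure D3:**
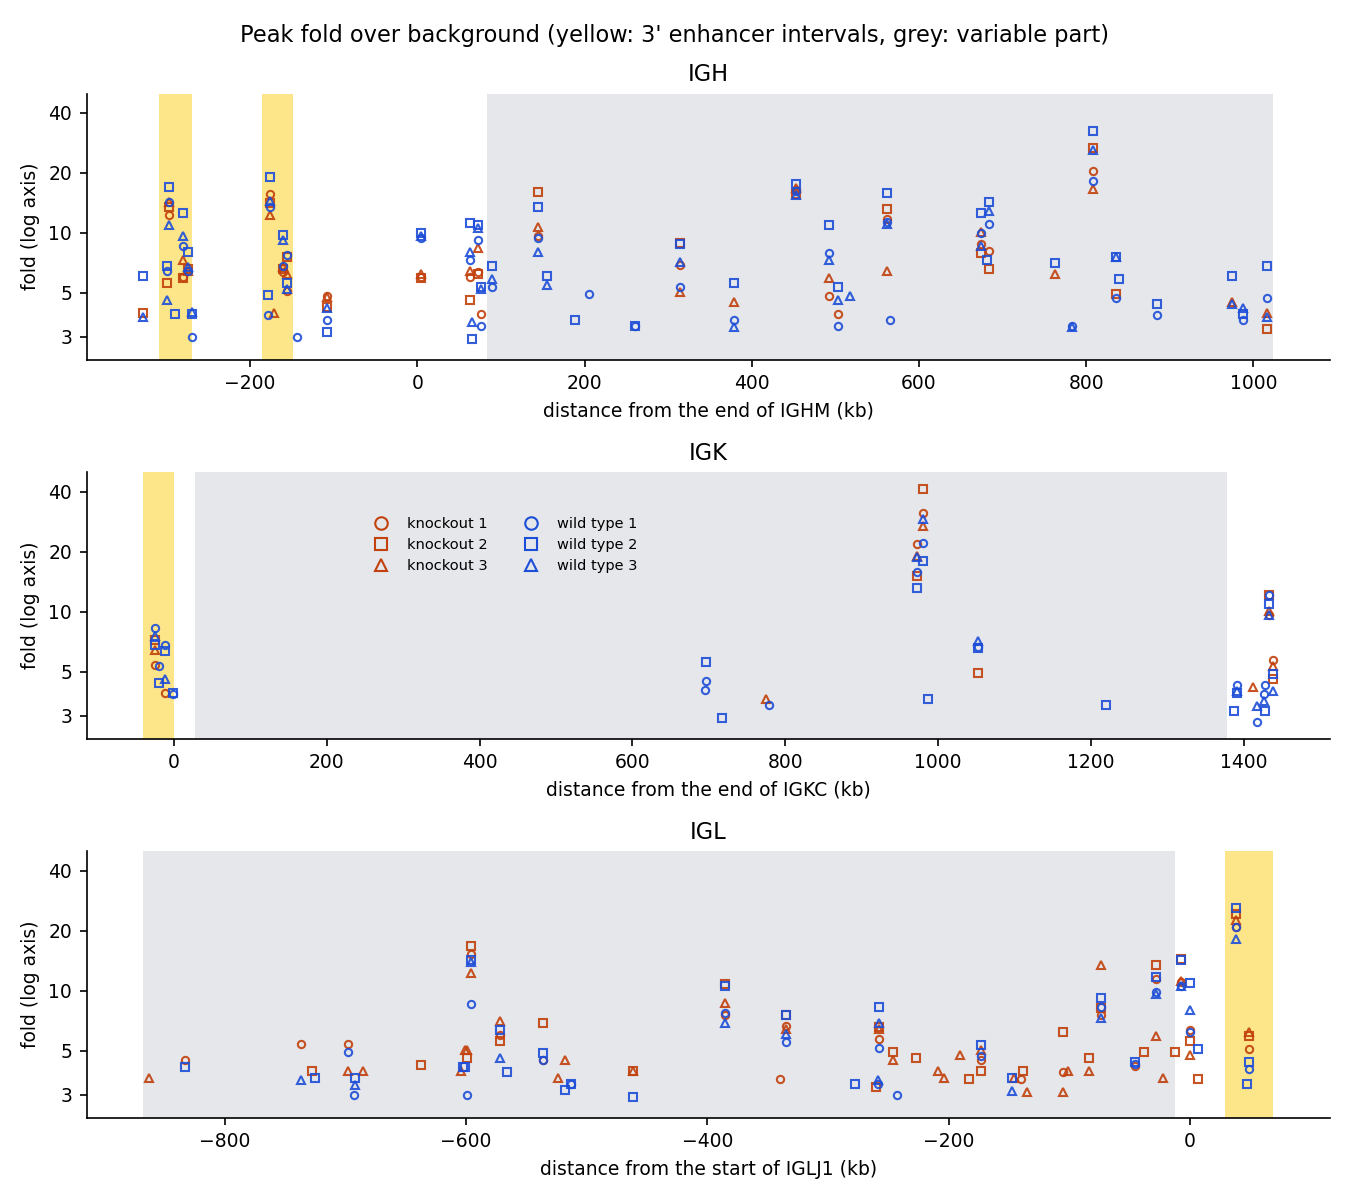
Fold over background (vertical log axis) of each region in each library that called it, at IGH, IGK and IGL, against the distance from the constant genes or, at IGL, from IGLJ1 (kb, horizontal axis); knockout is orange and wild type blue. At IGH the regions above a fold of 10 carry both colours, at IGK a gap of 696 kb opens beside IGKC, and at IGL many weak regions carry only orange points.

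The kappa locus was nearly empty around its constant gene. No list held a peak from 88856504 to 89552451 on chromosome 2, 696 kb that contain IGKC, the kappa constant gene, all 5 J segments, 23 V segments and 17 V pseudogenes. The intron between the J segments and IGKC, the place of the intronic kappa enhancer, therefore had no region in either genotype. No region lay within 1 kb of any of the 44 V segments or 32 V pseudogenes of the window. Whether this line kept these segments on its DNA was not tested, and how reads that fit several of them were placed is not given.

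Below IGKC, where the downstream kappa enhancers lie, 1 of 4 regions was called in all 6 lists. It covers IGKDEL, the element used to delete the kappa locus in lambda-producing cells, at 88831453 to 88832985, with folds of 5.42, 7.21 and 6.45 in knockout and 8.33, 6.81 and 7.54 in wild-type libraries. The groups overlap, and percentiles were 23 ± 8.34 against 20.4 ± 8.87 (SD, n = 3). The region at 88845714 to 88846305 was called in knockout library 1 alone of the 3, at 3.91, and in all wild-type libraries at 6.83, 6.32 and 4.61. Regions at 88838176 to 88838614 and at 88855581 to 88856503, which ends 857 bp below IGKC, were called in 2 wild-type lists each and no knockout list.

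The strongest kappa regions lay in the variable part, taken from the first to the last V segment, between the pseudogene ABCD1P1 and LOC105374862. They lie in a gap that holds no V segment, between IGKV2-40, which ends at 89330429, and IGKV2D-40, which starts at 89851758. Those at 89826408 to 89834087 (7680 bp) and 89835874 to 89841178 (5305 bp) were called in all 6 lists. The longer had folds of 22, 15.1 and 19.1 in knockout and 15.8, 13.1 and 18.9 in wild-type libraries, which overlap. The other had 31.3, 41.3 and 26.9 against 22.2, 18.0 and 29.3, the highest fold of all 139 members, and its percentile was 98.1 ± 1.01 against 84.6 ± 12.8 (SD, n = 3), higher in every knockout library, with an adjusted exact permutation p of 0.284. Past the last V segment, a broad region at 90288574 to 90293494 had 9.63, 12.1 and 10.1 against 12.2, 10.9 and 9.64, and the only kappa region seen in the wild type alone, 90248692 to 90249454, had 4.27, 3.89 and 3.98.

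The lambda locus had more regions than any other window and the largest share seen in knockout lists only. Its downstream enhancer interval held the broadest member, 22927825 to 22936421 on chromosome 22 (8597 bp), above IGLC7, the last lambda constant gene. Its folds were 20.8, 24.3 and 22.7 in knockout and 20.9, 26.0 and 18.2 in wild-type libraries, and its percentile 93.2 ± 1.16 against 84.3 ± 4.49 (SD, n = 3), higher in every knockout library. A weaker region in that interval, 22942328 to 22943472, was called in 3 knockout lists at 5.12, 5.90 and 6.17 and in 2 wild-type lists at 4.06 and 4.37.

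Between the V and J segments, 22882048 to 22890305 (8258 bp) covers a start of LOC105372948, MIR5571 and part of IGLL5, a lambda-like gene. Its folds were 11.1, 14.4 and 11.2 in knockout and 10.5, 14.3 and 10.5 in wild-type libraries, with percentiles of 68.5 ± 4.32 against 47.8 ± 7.20 (SD, n = 3), higher in every knockout library. The region over IGLJ1 and IGLC1, at 22892614 to 22895662, had 6.32, 5.57 and 4.77 against 6.19, 10.9 and 7.96, and its percentile of 14.4 ± 8.14 against 24.9 ± 12.7 (SD, n = 3) was the only one of the 9 lambda regions called in all 6 lists whose mean was lower in the knockout. Regions within 1 kb of a V segment were found at 17 of 37 segments and 3 of 36 pseudogenes, and 2 of the 17, at IGLV3-9 and IGLV3-1, were called in all 6 lists. The region over IGLV3-9 had 7.52, 8.20 and 13.5 against 8.33, 9.24 and 7.33. Of the other strong regions in the variable part, 22297293 to 22299120 below IGLV5-52 had 15.3, 16.7 and 12.3 against 8.54, 14.3 and 14, and 22865306 to 22866782 below IGLV4-3 had 11.4, 13.4 and 5.89 against 9.82, 11.7 and 9.64. The folds of all 3 regions overlap. Percentiles were higher in every knockout library at the first of them, with 36.9, 36.4 and 77.1 against 29.1, 26.8 and 19.2, and at the second, with 81.9, 80.4 and 72.6 against 30.9, 55.9 and 63.3. The variable part also holds genes of other families, and PRAME, a tumour antigen gene, had a region with folds of 6.62, 7.54 and 6.45 against 5.55, 7.53 and 6.08.

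Regions called in knockout lists and no wild-type list numbered 24 of 57 at IGL (42.1%), and 23 of them lay in the variable part. They were weak and seldom shared: 21 were in 1 knockout list, 2 in 2 and 1 in all 3, and their highest folds ranged from 3.09 to 6.23 with a median of 3.93. Knockout library 3 had 14 of them, library 2 had 11 and library 1 had 3, and without library 3 the count was 14. The region in all 3, at 22788165 to 22788821 below IGLV2-11, had folds of 3.91, 6.23 and 3.09. It was called in 1 knockout list at a −log10 q-value of at least 5 and in 2 at an equal fold threshold.

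A like pattern ran along chromosome 22. Of 1 Mb bins with a mean of at least 10 peaks, 4.58% genome-wide had as many or more peaks in the knockout mean than in the wild-type mean, and IGL lies in an unbroken run of 6 such bins from 18 to 24 Mb. In that run outside the IGL window the knockout lists held 145, 164 and 192 peaks and the wild-type lists 126, 147 and 114, again 129%. Of 306 regions there, 134 were in knockout lists only (43.8%). The run was picked by that order of the means, so its higher knockout counts carry no test. Within 5 Mb on either side of the IGL window, bins not picked by value, the counts were 204, 225 and 255 against 187, 216 and 174. The knockout mean there was 119% of the wild-type mean (exact permutation p = 0.20). On the rest of chromosome 22 the knockout mean was 103% of the wild-type mean and 285 of 1203 regions were in knockout lists only (23.7%), beside 6.77% outside the chromosome. Per 1000 peaks of the list, all of chromosome 22 held 27.1 ± 2.21 in knockout and 16.4 ± 1.16 in wild-type libraries (SD, n = 3, exact permutation p = 0.10). The 129% at IGL thus stands beside 119% for the 5 Mb on either side and 103% for the chromosome outside the run. Whether DNA copy number or another property of chromosome 22 differs between these libraries was not tested. Of all peaks in the 3 immunoglobulin windows, IGL took 49.1%, 47.5% and 50% in knockout and 31.1%, 35.6% and 25.8% in wild-type libraries (48.9 ± 1.24 against 30.8 ± 4.92, SD, n = 3, exact permutation p = 0.10).

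**Figure D4:**
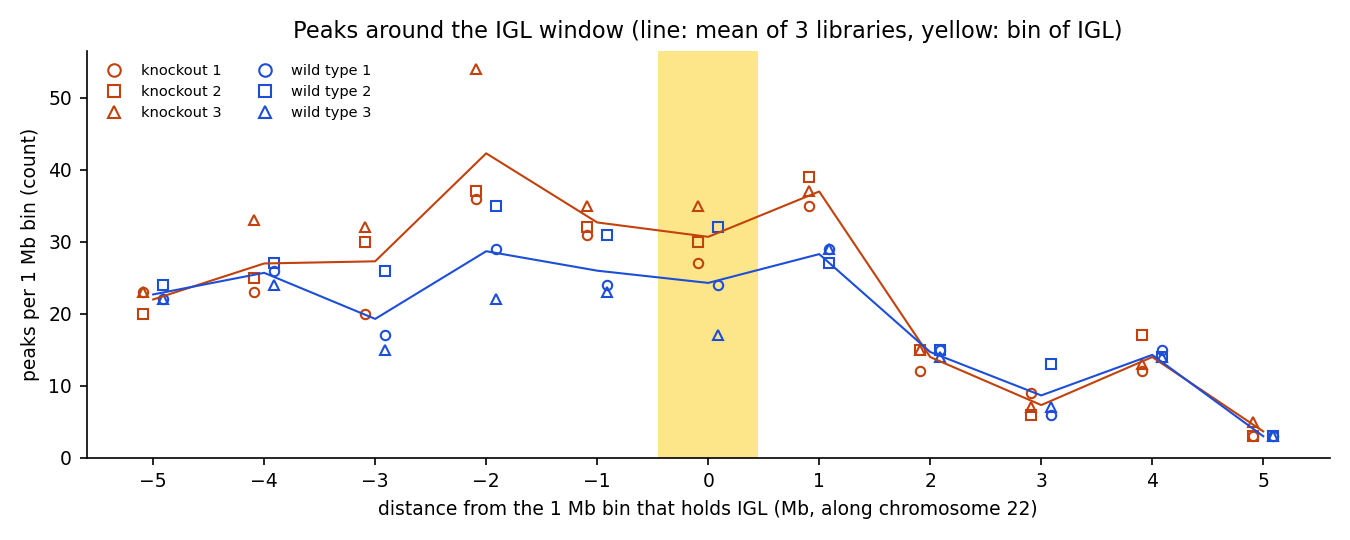
Peaks per 1 Mb bin (count, vertical axis) of chromosome 22 in each library, against the distance from the bin of IGL (Mb, horizontal axis); lines are means of 3 libraries, with knockout in orange and wild type in blue. The orange line lies above the blue line from the bin 4 Mb before IGL to the bin 1 Mb after it, and the lines run together beyond.

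Ranks of the shared regions followed the same division by chromosome. Of the 32 members called in all 6 lists, 10 ranked higher in every knockout library (31.2%), beside 17.8% of all 23589 regions. They were 6 of 9 at IGL (66.7%), 3 of 15 at IGH, 1 of 4 at IGK and none of 4 at JCHAIN. In the run of chromosome 22 outside IGL the count was 52 of 87 (59.8%) and on the rest of that chromosome 237 of 410 (57.8%). The 3 at IGH were the strongest region below IGHA2 and those at IGHVIII-2-1 and IGHVIII-26-1. No region of the 23589 passed 0.05 before or after adjustment in the exact permutation test, whose smallest values are 0.10 and 0.284.

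**Figure D5:**
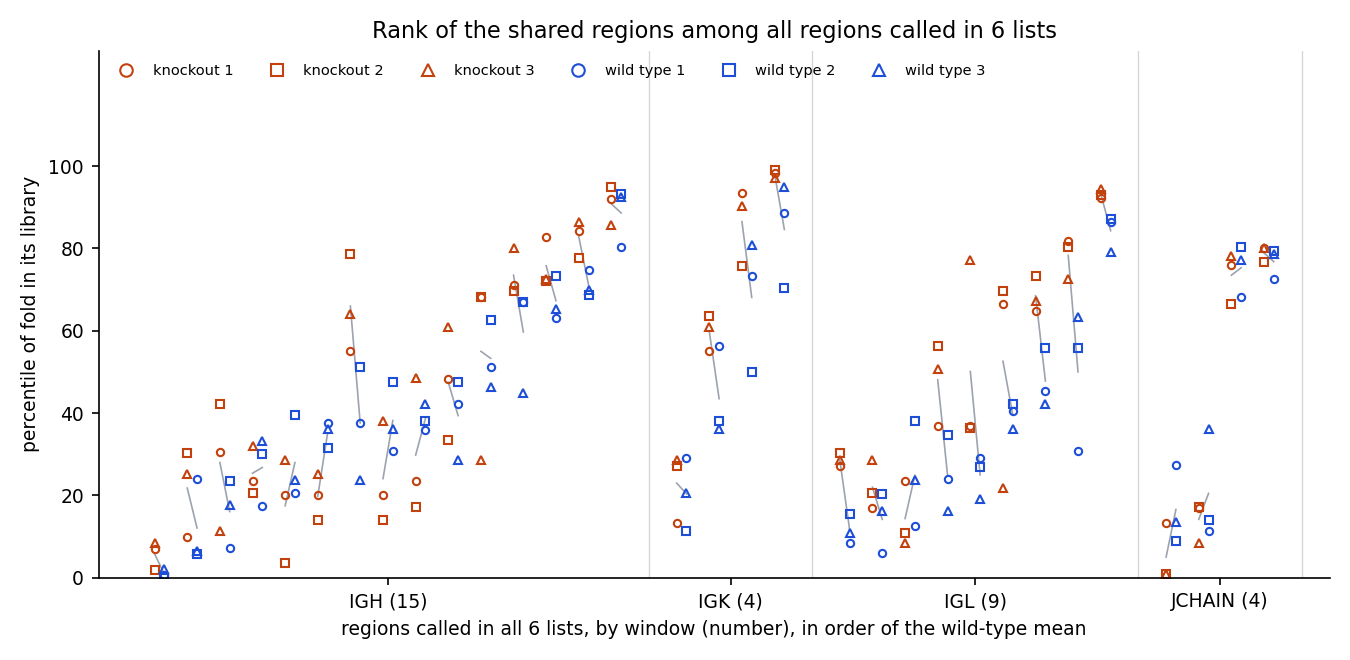
Percentile of fold within each library (vertical axis) for the 32 members called in all 6 lists, grouped by window along the horizontal axis in order of the wild-type mean; knockout is orange, wild type blue, and grey lines join the group means. Most lines at IGL fall from the knockout to the wild type, with 6 of 9 regions higher in every knockout library, and those at JCHAIN show no such order.

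Long regions were more frequent here than in the genome at large. Of the 139 members 8 exceeded 4 kb (5.76%), beside 1.24% of all regions, and all 8 were called in all 6 lists, where they made up 25.0% of the members beside 3.85% of all such regions. They were the IGH intron region, the 2 FAM30A regions, the 3 broad kappa regions and the 2 broad lambda regions, and 5 of the 8 lie between the V segments and the constant genes or beyond the last constant gene.

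Genes that act on these loci were read at their starts, as regions within 1 kb of a start in the promoter table. Of all 15843 coding genes in that table, 58.3% had a start called in all 6 lists, and of those 9232 starts 37.3% had every knockout fold below every wild-type fold. Of 16 regulators of antibody gene transcription, 13 were in the table and 9 had a start called in all 6 lists (69.2%). None had a start called in all 3 lists of 1 genotype and in no list of the other. Folds were lower in every knockout library at 2 of the 9, IKZF1 and POU2F1. IRF4, which drives plasma cell fate, had folds of 20.5, 22.6 and 19.4 in knockout and 20.9, 28.7 and 25.6 in wild-type libraries, and XBP1, the secretory regulator, 19.0, 13.4 and 13.5 against 14.3, 17.7 and 13.2. The start of IKZF1, the Ikaros factor, had 6.02, 8.52 and 7.02 against 13.7, 16.5 and 10.5, and that of POU2F1, an octamer-binding factor, 26.2, 24.6 and 19.6 against 27.3, 32.8 and 28.1. PAX5, which holds B cell identity and is turned off in plasma cells, was called in 2 knockout and 3 wild-type lists, IRF8 in 2 wild-type lists, and EBF1 and SPIB in none. POU2AF1, SPI1 and IKZF3 were not in the table.

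Of 15 genes of antibody assembly and secretion, 14 were in the table and 13 had a start called in all 6 lists (92.9%, beside 58.3% of coding genes), among them MZB1, a chaperone of antibody assembly, with 14.4, 17.0 and 19.6 against 21.1, 28.7 and 18.4, and the chaperone HSPA5 with 21.4, 24.9 and 19.1 against 19.6, 24.1 and 20.7. Folds were lower in every knockout library at 4 of the 13 (30.8%, beside 37.3%). DNAJB9, a co-chaperone of the endoplasmic reticulum, had 35.5, 27.5 and 27.8 against 48.7, 52 and 42.5, and SEC11C, a signal peptidase subunit, 27.4, 32.5 and 25.8 against 38.7, 44 and 35.2. The disulphide exchange proteins TXNDC5 and ERP44 had 6.92, 5.57 and 5.89 against 9.18, 9.24 and 11.3 and 19.6, 23.6 and 20.5 against 27.3, 31.4 and 27.5. PIGR, the receptor that carries antibodies held together by the joining chain across epithelia, had none, and DERL3 was not in the table. Among genes of recombination and class switching, the starts of RAG1, UNG, MSH6, LIG4 and XRCC4 were called in all 6 lists and those of RAG2 and DNTT in none. Folds were lower in every knockout library at 4 of those 5, all but UNG, beside 37.3% of coding starts called in all 6 lists. The RAG1 start had 13.2, 17.7 and 17.4 against 22, 36.2 and 21.2, that of LIG4, a ligase of DNA end joining, 21.7, 18.7 and 18.8 against 23.1, 33.8 and 27.7, and that of its partner XRCC4 22.3, 25.2 and 18.5 against 25.6, 33.8 and 33.3. Among partners of the B cell receptor, the starts of CD79A, VPREB1 and IGLL1 had no call, and CD79B and IGLL5 were not in the table.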

How the data were processed

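The data were 6 ATAC-seq peak lists on GRCh38, 1 for each library rather than for pooled libraries. The submitters' processing notes name Trimmomatic, FastQC, MultiQC, Bowtie2, MACS and MACS2 2.1.2. The role and settings of each, and how duplicates, the transposase offset and reads that fit several places were treated, are not given in the sources used. Each peak in the deposited lists carries a score, a fold ratio over background, and a −log10 p-value and −log10 q-value of its summit, as the authors' caller gave them. The deposited score was 10 times the −log10 q-value.

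From these lists, with Python 3.11.15, pandas 2.3.3 and scipy 1.17.1, peaks sharing at least 1 bp were merged after the mitochondrial peak of each list was left out. Deposited fold values under 100 were whole multiples of 1 step per library for 100% of peaks (tolerance 0.05 of a step), which gave each background pileup and the reads at a summit. A region seen in 1 genotype alone was called in its 3 lists and in none of the others. Percentiles rank a region's fold within its library among regions called in all 6 lists. Group means were compared by enumerating the 20 labellings (exact permutation, two-sided), with Benjamini-Hochberg adjustment. Genes came from RefSeq tables of GRCh38.p14, and an enhancer interval is 40 kb past the last constant gene or, at IGHA1, the stretch back to IGHGP.

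The members and gene lists were chosen with earlier results of these data known. Regions named with values were those seen in 1 genotype alone, the 5 with the highest mean fold of those called in all 6 lists per window, those within 2 kb of JCHAIN, and those in constant and enhancer intervals. Others are named after their values were seen. Alternatives were a stricter q-value, lists of equal length, 50% coverage of a region, other windows and measures, and leaving out each library. An equal fold threshold was chosen after seeing the data. Some genes of the lists are not reported here. The code was tested on simulated data.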

Additional observations from a re-analysis of the deposited data

How the results depend on the processing

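With a −log10 q-value of at least 5, the members seen in the wild type alone fell from 7 of 50 called in all 3 wild-type lists to 3 of 40. The share over all such regions was 17.3% before and 18.3% after. Members seen in the knockout alone fell from 1 to 0, and the IGL regions in knockout lists only from 24 to 10. With lists of equal length the peak difference between genotypes turned to 13.7 over the 4 windows (from -19.7), to 0.667 at IGH (from -12.7) and to 1.00 at IGK (from -7.00). It moved to -1.67 at JCHAIN (from -6.67) and 13.7 at IGL (from 6.67). The members seen in the wild type alone then numbered 2 of 36, beside 7.24% of all such regions, and those in the knockout alone 3. With an equal fold threshold, chosen after seeing the data, the members seen in the knockout alone numbered 0. With 50% of a region covered the members ranked lower in every knockout library numbered 0 of 18, beside 18.2% of all such regions. The cause was not tested. Leaving out each library in turn gave 8 to 16 members seen in the wild type alone and 1 to 3 in the knockout alone. It gave 14 to 29 IGL regions in knockout lists only and 1 to 4 members ranked lower in every knockout library. With a library left out fewer lists must agree, which loosens the rules for calls in 1 genotype alone and for rank. Over all regions the wild-type-only share rose from 17.3% to between 19.9% and 22.4%, and the share ranked lower from 17.3% to between 20.7% and 23.6%. The fit with a replicate block, which pairs libraries by number, gave the same difference of -19.7 with an exact sign-flip p of 0.250, the smallest that the 8 sign flips of 3 pairs allow. Correlations between the deviations of same-numbered libraries, not between the libraries themselves, were -0.02, 0.02 and -0.18. Those of differently numbered pairs ran from -0.12 to 0.13. Whether libraries of the same number share a batch or culture was not tested. Background pileups of 2.05 to 3.77 reads limit what any list can hold, and a site missing from a list may lie just under its threshold.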
